A study of Mus musculus with 6 samples.

Results

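The metallothionein and zinc transporter genes of the mouse liver were followed in 6 RNA-seq libraries, each from the whole liver of 1 male mouse. The set was chosen by gene symbol and holds 10 of the 24346 genes of the table. These are the metallothioneins *Mt1*, *Mt2*, *Mt3* and *Mt4*, the metal-responsive transcription factor *Mtf1*, the exporters *Slc30a1* and *Slc30a10*, and the importers *Slc39a4*, *Slc39a8* and *Slc39a14*. The control group was 3 med23f/f mice, which carry floxed *Med23* alleles, and the other group was 3 mice labelled med23Δli, in which *Albumin*-cre deletes the floxed part in hepatocytes while the other liver cells keep it. All 6 mice were on the C57/BL6 background, were 8 weeks old and were killed 24 h after 1 intraperitoneal dose of carbon tetrachloride (CCl4, 0.6 µl per g body weight, in sunflower oil), so no untreated liver was part of the comparison. MED23 is a subunit of Mediator, the complex that links transcription factors to RNA polymerase II.

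Metallothioneins are small, cysteine-rich proteins that bind zinc and copper and buffer their free levels in the cell. In hepatocytes *Mt1* and *Mt2* are induced by zinc through MTF1, which binds metal response elements in their promoters, and also by glucocorticoids, inflammatory cytokines and oxidative stress, and both are classical acute-phase genes of the injured liver. *Mt3* is known mainly from the brain and *Mt4* from stratified squamous epithelia. Transporters of the SLC30 family move zinc or manganese out of the cytosol, and those of the SLC39 family move metal ions into it.

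Expression was given in FPKM, fragments scaled to transcript length and library size. Read counts cannot be had from such values, which leaves the depth of each single library unknown, and every error given here is the spread over 3 mice. Groups were compared on the scale of log2(FPKM + 0.1), which understates the change of low genes, with limma over the 11956 genes that averaged 0.5 FPKM or more. A gene was called when the log2 fold change exceeded 1 in size and the adjusted p was below 0.05. *Med23* itself ran from 2.97 to 4.14 FPKM in controls and from 2.91 to 3.40 FPKM in med23Δli livers, a log2 fold change of −0.11 with an adjusted p of 0.685 in limma. Its level did not separate the groups, so each direction below rests on the labels. The 6 hepatocyte markers examined were present in every liver, with summed levels of 23767 to 33178 FPKM in controls and 19714 to 26296 FPKM in med23Δli livers, and none was called. Of 5 endothelial markers 4 were called lower, where 3.45% of all genes were, and their summed level was 73.6 to 110 FPKM in controls and 38.5 to 41.4 FPKM in med23Δli livers. That count of 4 dropped to 2 without control replicate 3, to 1 without med23Δli replicate 3, and to 1 with a pseudocount of 1. In med23Δli replicate 2 the summed level of 5 adipocyte markers was 13.1 FPKM, against 0.220 to 0.540 FPKM in the other 5 livers. In whole liver, fewer cells of a type and less RNA per cell cannot be told apart.

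The 4 metallothionein genes form 1 cluster on the plus strand of chromosome 8 (mm10). *Mt4* (ENSMUSG00000031757.7) lies at chr8:94137197-94139031, *Mt3* (ENSMUSG00000031760.9) at chr8:94152607-94154146, *Mt2* (ENSMUSG00000031762.7) at chr8:94172664-94173568 and *Mt1* (ENSMUSG00000031765.8) at chr8:94179082-94180327. The gaps between neighbours are 13575 bases from *Mt4* to *Mt3*, 18517 bases from *Mt3* to *Mt2* and 5513 bases from *Mt2* to *Mt1*. RefSeq promoter windows (GRCm38.p6, the same assembly as mm10) were found for 8 of the 10 genes, with 2 windows for *Slc39a8*. Each window covers 250 bases before the RefSeq start and 50 after it. *Slc39a4* and *Slc39a14* had no window. The sequences of the 3 metallothioneins that the comparison turns on are shown 5′ to 3′ for the 250 bases before the start, since *Mt1* and *Mt2* are adjacent, metal-inducible genes whose levels differed from each other in the comparison below. Capitals mark the core of the metal response element, TGCACNC or TGCGCNC on either strand, and the windows lie at chr8:94178839-94179088 for *Mt1*, chr8:94172368-94172617 for *Mt2* and chr8:94152357-94152606 for *Mt3*.
Mt1 promoter: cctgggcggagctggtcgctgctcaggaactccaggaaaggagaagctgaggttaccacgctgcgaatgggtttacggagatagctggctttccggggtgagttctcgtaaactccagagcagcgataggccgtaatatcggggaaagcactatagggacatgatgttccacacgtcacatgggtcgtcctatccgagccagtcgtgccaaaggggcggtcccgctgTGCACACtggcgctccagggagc
Mt2 promoter: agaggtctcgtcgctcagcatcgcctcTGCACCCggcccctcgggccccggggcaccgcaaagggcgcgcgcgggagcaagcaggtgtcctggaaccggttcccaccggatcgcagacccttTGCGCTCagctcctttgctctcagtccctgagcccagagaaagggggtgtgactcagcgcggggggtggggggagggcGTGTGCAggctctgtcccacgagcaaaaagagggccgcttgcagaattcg
Mt3 promoter: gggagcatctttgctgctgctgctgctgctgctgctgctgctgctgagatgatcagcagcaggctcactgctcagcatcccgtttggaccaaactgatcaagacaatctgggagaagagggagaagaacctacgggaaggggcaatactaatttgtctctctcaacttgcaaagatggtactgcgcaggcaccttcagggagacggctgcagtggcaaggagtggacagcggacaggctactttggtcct
The *Mt1* window held 3 cores. Of these, 1 lay at −23 to −17 from the RefSeq start. The others lay at 2 to 8 and 20 to 26 after it. They fall within the first 30 bases from that start, shown here with the same capitals.
Mt1 first bases: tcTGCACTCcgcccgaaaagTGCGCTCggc
The *Mt2* window held 4 cores, starting at −223, −128 and −50 and at 4 after the start. The *Mt3* window held 1 core, past the part shown.

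Among all 32851 promoter windows of the same length, 25.7% held at least 1 metal response core, 1.97% at least 3 and 0.518% at least 4. The *Slc30a1* window held 2 cores and the *Mt4* window 1. *Slc30a10* held 3, of which a pair at −233 and −232 is 1 stretch read on both strands. The second *Slc39a8* window held 1, and the first *Slc39a8* window and that of *Mtf1* held none. The antioxidant element core TGACNNNGC occurred once in the windows of *Mt2*, *Slc30a1* and the first of *Slc39a8*, and in 12.4% of all windows. The STAT element TTCNNNGAA, present in 8.30% of all windows, occurred in none of those of the set. These matches describe letters in a fixed window, and other annotated starts exist: GENCODE transcripts of *Mt1* begin at −7, 122 and 152 from the RefSeq start, and those of *Mt2* at 46 and 242.

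*Mt1* and *Mt3* were lower in med23Δli livers, and *Mt2*, the closest neighbour of *Mt1*, was not called in either direction. Of the 10 genes, all 10 passed the filter on low values, 2 were called lower and 0 were called higher, where 3.45% of all genes tested were called lower and 4.45% higher. The same 2 genes passed at an adjusted p below 0.05 with any size of change (limma), where 9.48% of all genes were lower and 11.6% higher. At an unadjusted p below 0.05 in limma, 3 genes of the set were lower and 0 higher, where 17.1% of all genes were lower and 20.5% higher. The values of the groups did not overlap for 5 genes, all lower in med23Δli livers (*Mt1*, *Mt3*, *Mtf1*, *Slc30a10* and *Slc39a4*), where 20.4% of all genes did so in the lower direction and 23.3% in the higher one. The median log2 fold change of the set was −0.38, and that of all genes tested was 0.02. The median of the set includes *Mt4*, which passed the filter only through control replicate 2 (3.38 FPKM). Without *Mt4* the middle gene of the set was *Mtf1*, at −0.26.

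**Figure D1:**
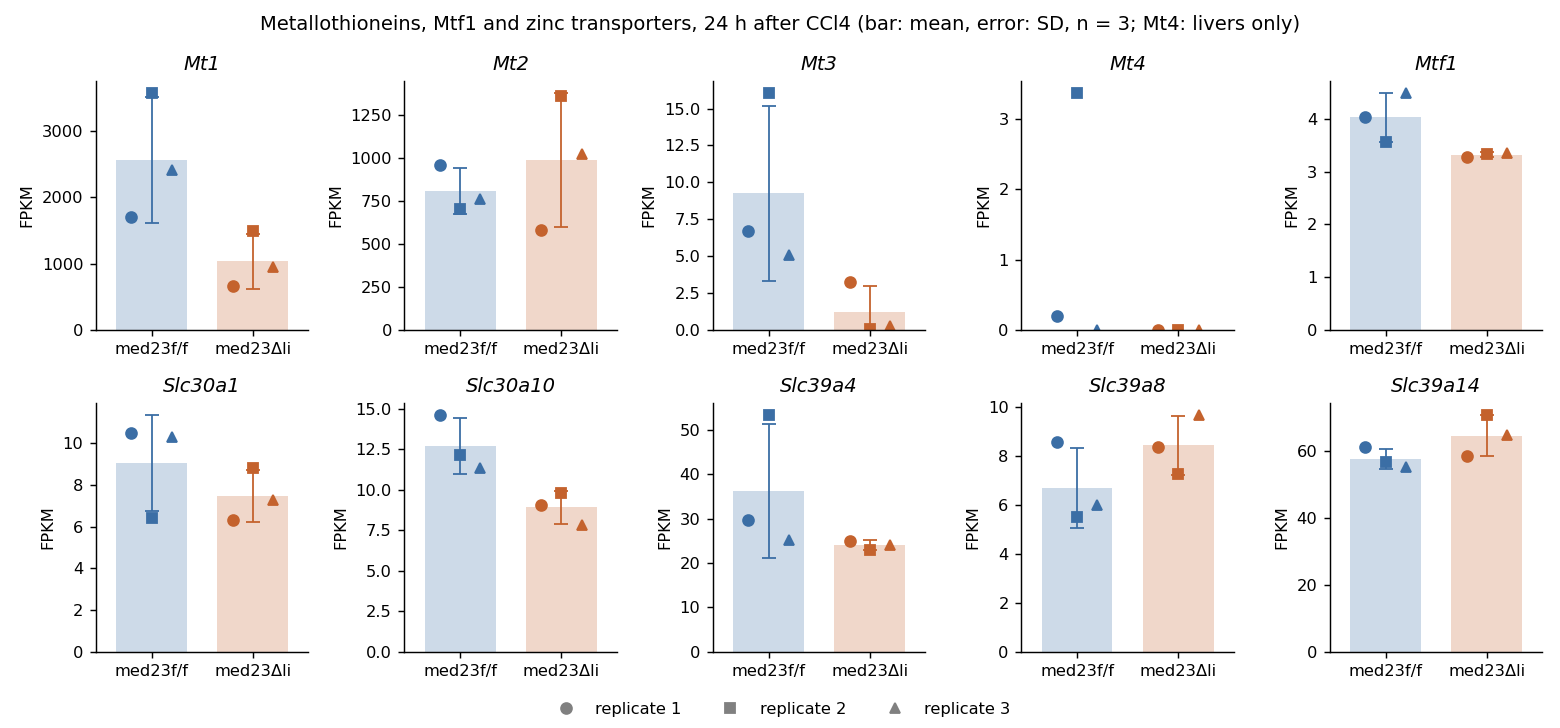
FPKM (linear axes, each starting at 0) of the 10 genes in each liver, with circles, squares and triangles for replicates 1, 2 and 3, bars for group means and error bars for the SD (n = 3); *Mt4* is drawn as single livers only. *Mt1* and *Mt3* of med23Δli livers lie below all controls, whereas the groups overlap for *Mt2*, and control replicate 2 is the highest liver for *Mt1*, *Mt3*, *Mt4* and *Slc39a4*.

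*Mt1* was the most abundant gene of the set in controls, with 1701, 3580 and 2420 FPKM, and had 662, 1489 and 946 FPKM in med23Δli livers. The highest med23Δli liver, replicate 2, lay below the lowest control, replicate 1. The means were 2567 ± 948 and 1032 ± 420 FPKM (SD, n = 3 each), 2.49-fold higher in controls. The log2 fold change was −1.33 (SE 0.35, 95% interval −2.13 to −0.52) with an adjusted p of 0.0336 from limma. The exact permutation p (two-sided) was 0.1, the smallest that 3 against 3 can give. Ranked by FPKM within its library, *Mt1* stood at places 43, 22 and 27 in controls and at places 161, 62 and 99 in med23Δli livers. Leaving out 1 liver at a time, the log2 fold change ran from −1.63 to −1.05. The adjusted p rose above 0.05 in limma without control replicate 2 (0.0829), control replicate 3 (0.0530), med23Δli replicate 1 (0.106) and med23Δli replicate 3 (0.107), and with all 6 livers without the filter on low values (0.0766).

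*Mt2*, the second metallothionein of hepatocytes, had 961, 705 and 760 FPKM in controls and 583, 1363 and 1021 FPKM in med23Δli livers. Replicate 1 of the med23Δli livers was the lowest of the 6 and the other two were the highest, so the groups overlapped. The means were 809 ± 135 and 989 ± 391 FPKM (SD, n = 3 each). The difference was 0.22 on the log2 scale (SE 0.30, 95% interval −0.47 to 0.91) with an adjusted p of 0.622 in limma and an exact two-sided permutation p of 0.6. The interval holds changes in both directions. Without med23Δli replicate 2, the liver with the adipocyte markers, the log2 fold change of *Mt2* was −0.055 and that of *Mt1* was −1.63. Without med23Δli replicate 1 it was 0.56 for *Mt2* and −1.05 for *Mt1*.

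Within a liver, the ratio of *Mt1* to *Mt2* does not depend on how the library was scaled. The ratio was 1.77, 5.08 and 3.18 in controls and 1.14, 1.09 and 0.927 in med23Δli livers. The med23Δli livers lay close to equal levels, and every control lay above them. The mean log2 ratio was 1.61 ± 0.762 in controls and 0.07 ± 0.156 in med23Δli livers (SD, n = 3 each), a difference of −1.55 with an exact two-sided permutation p of 0.1, again the smallest possible. Leaving out each liver in turn gave differences of −1.94 to −1.18. *Mt1* and *Mt2* together held 0.417%, 0.658% and 0.529% of the summed FPKM in controls and 0.205%, 0.438% and 0.332% in med23Δli livers. These shares overlapped, with means of 0.535 ± 0.121% and 0.325 ± 0.117% (SD, n = 3 each) and an exact two-sided permutation p of 0.2.

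**Figure D2:**
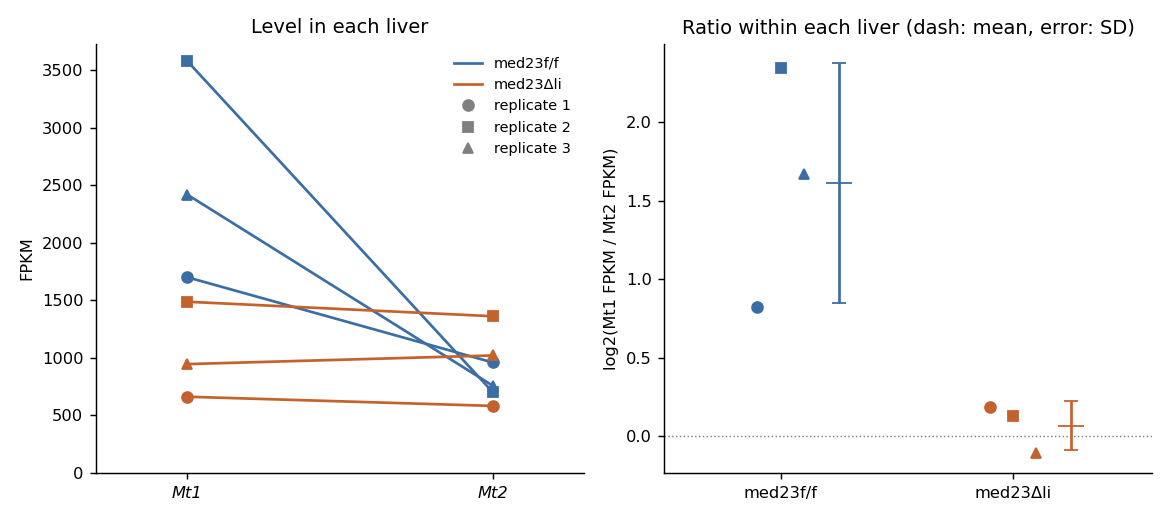
Left, FPKM of *Mt1* and *Mt2* in each liver, joined by a line (blue, med23f/f; orange, med23Δli); right, log2 of the ratio of *Mt1* to *Mt2* in each liver with the mean and SD (n = 3). Lines of the controls slope down from *Mt1* to *Mt2*, while those of the med23Δli livers are nearly flat, with log2 ratios from −0.11 to 0.18 against 0.82 to 2.34 in controls.

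The longest run of bases that *Mt1* shares with *Mt2* was 20 and with *Mt3* 27, in libraries with reads of 150 bases. No 50-base stretch of *Mt1*, *Mt3* or *Mt4* transcripts occurred in another gene. For *Mt2*, 45.8% of such stretches also lie in *Gm45774*, an antisense gene that overlaps it and is not a row of the table, and the library kit does not mark strand, so reads of *Mt2* and of this partner cannot be told apart. Genes on the opposite strand also overlap 7.55% of *Mtf1*, 8.01% of *Slc30a1* and 8.36% of *Slc30a10* stretches. Unlike *Gm45774*, these partners are rows of the table.

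*Mt3* was detected at a low level, with 6.66, 16.0 and 5.08 FPKM in controls and 3.23, 0.0406 and 0.238 FPKM in med23Δli livers. The controls lay above all med23Δli livers, and med23Δli replicate 1 lay closest to them. The means were 9.26 ± 5.93 and 1.17 ± 1.79 FPKM (SD, n = 3 each), 7.92-fold higher in controls. The log2 fold change was −3.93 (SE 1.04, 95% interval −6.33 to −1.54) with an adjusted p of 0.0339 from limma and an exact two-sided permutation p of 0.1. Values near 0 make this size depend on the pseudocount, and with 1 FPKM in place of 0.1 the log2 fold change was −2.40. It also depended on single livers, with −5.24 without med23Δli replicate 1 and −2.96 without med23Δli replicate 2. Left out in turn, control replicates 1 and 2 and med23Δli replicates 2 and 3 each moved the adjusted p of limma above 0.05, to 0.0818, 0.0950, 0.0910 and 0.117. With all 6 livers it was 0.0723 without the filter on low values and 0.0973 with robust eBayes.

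*Mt4* was listed at 0.196, 3.38 and 0 FPKM in controls and at 0 in all 3 med23Δli livers. Its mean passed the filter only through control replicate 2, and its adjusted p in limma was 0.199. Control replicate 2 had the highest level of *Mt1*, *Mt3* and *Mt4* of all 6 livers and the lowest level of *Mt2* among the controls. The same liver was the lowest control for *Mtf1*, *Slc30a1* and *Slc39a8*.

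*Mtf1* (ENSMUSG00000028890.13, chr4:124802104-124849800, plus strand) encodes the zinc-sensing activator of metallothionein genes. It had 4.05, 3.57 and 4.49 FPKM in controls and 3.28, 3.34 and 3.36 FPKM in med23Δli livers. The groups did not overlap, but the gap was small. The means were 4.04 ± 0.463 and 3.33 ± 0.0417 FPKM (SD, n = 3 each). The log2 fold change of −0.26 (SE 0.15, 95% interval −0.60 to 0.07) did not pass, with an adjusted p of 0.222 in limma.

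**Figure D3:**
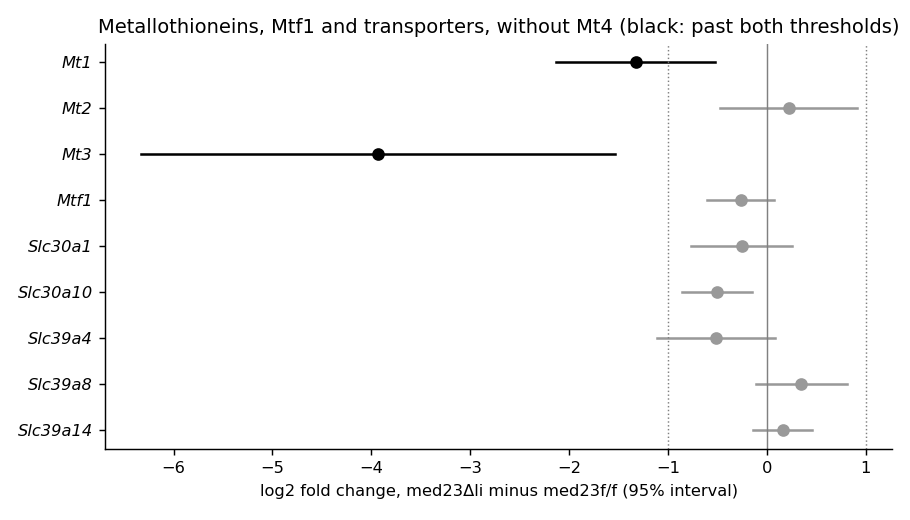
Log2 fold change (med23Δli minus med23f/f) with its 95% interval from limma for 9 of the 10 genes, *Mt4* left out because it was listed at 0 in every med23Δli liver; dotted lines mark 1 and −1, and black marks the genes past both thresholds. *Mt1* (−1.33) and *Mt3* (−3.93) are the genes in black, and the interval of *Mt2* runs from −0.47 to 0.91.

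No exporter or importer of the set passed the test. *Slc30a1* (ENSMUSG00000037434.7, chr1:191906767-191913247, plus strand) is the zinc exporter of the plasma membrane and a target of MTF1. It had 10.5, 6.42 and 10.3 FPKM in controls and 6.31, 8.80 and 7.29 FPKM in med23Δli livers, and the groups overlapped. Its log2 fold change was −0.26 (SE 0.22, 95% interval −0.77 to 0.26) with an adjusted p of 0.431 in limma. *Slc30a10* (ENSMUSG00000026614.6, chr1:185454848-185468762, plus strand), which exports manganese, had 14.6, 12.1 and 11.3 FPKM in controls and 9.08, 9.83 and 7.84 FPKM in med23Δli livers. All controls lay above all med23Δli livers, with means of 12.7 ± 1.72 and 8.91 ± 1.00 FPKM (SD, n = 3 each). The log2 fold change of *Slc30a10* was −0.50 (SE 0.15, 95% interval −0.86 to −0.15), with an adjusted p of 0.0523 in limma. Its adjusted p fell below 0.05 in 4 of 15 alternative settings of limma, among them 0.0373 without control replicate 3 and 0.0371 with each library centred on its median.

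*Slc39a4* (ENSMUSG00000063354.7, chr15:76612383-76617384, minus strand) is the zinc importer of the intestine. It had 29.8, 53.4 and 25.25 FPKM in controls and 25.04, 22.8 and 24.2 FPKM in med23Δli livers. Control replicate 2 stood well above the rest, and the groups were separated only by the distance from 25.25 to 25.04 FPKM. The log2 fold change was −0.51 (SE 0.26, 95% interval −1.11 to 0.09) with an adjusted p of 0.187 in limma, and it was −0.19 without control replicate 2. *Slc39a8* (ENSMUSG00000053897.15, chr3:135825279-135888572, plus strand) imports zinc and manganese. It had 8.57, 5.50 and 6.02 FPKM in controls and 8.39, 7.29 and 9.69 FPKM in med23Δli livers, which overlapped. Its log2 fold change was 0.35 (SE 0.20, 95% interval −0.11 to 0.81) with an adjusted p of 0.235 in limma. *Slc39a14* (ENSMUSG00000022094.15, chr14:70303469-70351425, minus strand) imports zinc, manganese and iron into hepatocytes and rises in inflammation. It had 61.1, 56.6 and 55.3 FPKM in controls and 58.4, 70.7 and 64.6 FPKM in med23Δli livers. This was the most even gene of the set in controls relative to its mean, 57.7 ± 3.06 against 64.6 ± 6.16 FPKM in med23Δli livers (SD, n = 3 each). Its log2 fold change was 0.16 (SE 0.13, 95% interval −0.14 to 0.46) with an adjusted p of 0.394 in limma.

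By mean FPKM, which is per transcript length, the order in controls was *Mt1*, *Mt2*, *Slc39a14*, *Slc39a4*, *Slc30a10*, *Mt3*, *Slc30a1*, *Slc39a8*, *Mtf1* and *Mt4*. Ranges of neighbours overlapped for *Slc30a10* and *Mt3*, *Mt3* and *Slc30a1*, and *Slc30a1* and *Slc39a8*, whereas all controls of *Slc30a10* lay above those of *Slc30a1* and *Slc39a8*. In med23Δli livers *Mt1* and *Mt2* overlapped, as did *Slc30a10*, *Slc39a8* and *Slc30a1*, and *Mt3* stood below *Mtf1*.

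Among the other transporters of both families, 3 rose, and none of these belongs to the set. Counting the 5 transporters of the set, 19 of 24 SLC30 and SLC39 genes could be tested. Of the 19, 3 were called higher and 0 lower in limma, against 4.45% and 3.45% of all genes, and at an unadjusted p below 0.05 in limma 5 were higher and 1 was lower, against 20.5% and 17.1%. Their median log2 fold change was 0.03. The groups did not overlap for 6 higher and 3 lower transporters, where 23.3% and 20.4% of all genes did so.

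*Slc39a11*, a zinc importer of the SLC39 family, had 12.4, 13.0 and 11.6 FPKM in controls and 27.8, 26.9 and 27.5 FPKM in med23Δli livers, with little spread in either group. Its rise was 1.15 on the log2 scale (SE 0.12) with an adjusted p of 0.00179 in limma. *Slc39a6*, a plasma membrane importer, rose from 3.92, 3.95 and 6.72 FPKM to 14.3, 12.2 and 12.6 FPKM, a log2 fold change of 1.45 (SE 0.22) with an adjusted p of 0.00634 in limma. Both passed in all 15 alternative settings. *Slc30a4*, an exporter into vesicles, had 11.7, 4.68 and 16.3 FPKM in controls and 28.2, 29.9 and 20.8 FPKM in med23Δli livers. Its log2 fold change was 1.42 (SE 0.41) with an adjusted p of 0.0444 in limma. This call was not stable: the adjusted p of limma with all 6 livers was 0.0862 without the filter, 0.0597 without the variance trend, 0.0678 with robust eBayes and 0.0663 with the replicate number as a block. It was 0.0813 without control replicate 1, and 0.125, 0.130 and 0.0924 without med23Δli replicates 1, 2 and 3. Without control replicate 2 the log2 fold change of *Slc30a4* was 0.91, short of the size threshold.

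**Figure D4:**
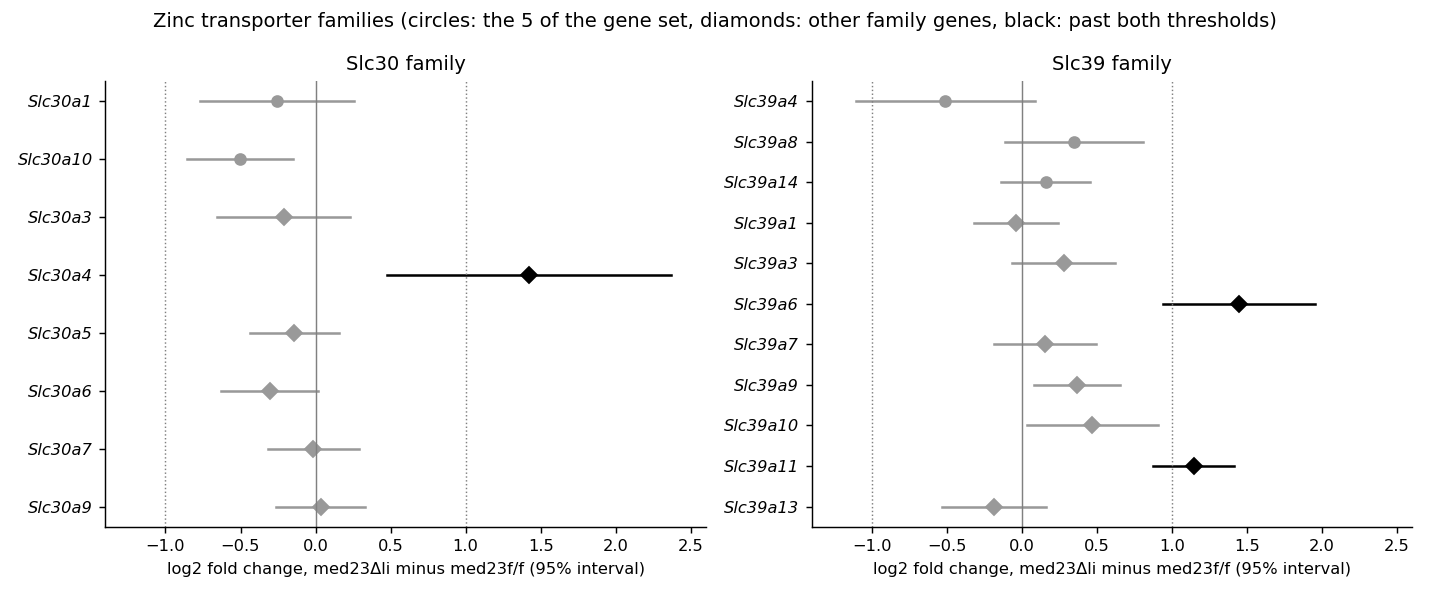
Log2 fold change (med23Δli minus med23f/f) with its 95% interval from limma for the 19 SLC30 (left) and SLC39 (right) genes tested; circles are the 5 transporters of the set, diamonds the other family genes, and black marks genes past both thresholds. *Slc30a4*, *Slc39a6* and *Slc39a11* lie to the right of 1, and all 5 circles lie between −1 and 1.

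The other SLC30 exporters comprised 8 genes, of which 6 were tested, 1 was called higher and none lower, with a median log2 fold change of −0.08. The other SLC39 importers comprised 11 genes, of which 8 were tested, 2 were called higher and none lower, with a median of 0.32. Over all genes 4.45% were called higher and 3.45% lower. Copper handling genes, whose products carry or store the other metal that metallothioneins bind, gave no call among 10 tested, with a median of 0.23. At an adjusted p below 0.05 in limma and any size, *Commd1*, which takes part in copper export, was higher (0.95, adjusted p 0.00671) and *Atp7b*, the copper pump mutated in Wilson disease, was lower (−0.86, adjusted p 0.0210). These are 1 higher and 1 lower of 10, near the shares of 11.6% and 9.48% over all genes.

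Of 5 genes described as dependent on metals or MTF1, 1 was called lower and none higher, where 3.45% and 4.45% of all genes were, with a median log2 fold change of 0.17. This was *Gclc*, which encodes the catalytic subunit of the first enzyme of glutathione synthesis, with 302, 524 and 292 FPKM in controls and 147, 187 and 104 FPKM in med23Δli livers. Its log2 fold change was −1.34 (SE 0.28) with an adjusted p of 0.0175 in limma, which was 0.0605 and 0.0654 without med23Δli replicates 1 and 3. *Gclc* is also a known target of NRF2.

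Of 10 inducers of metallothioneins and their signalling genes, 9 were tested, 1 was called lower and none higher (3.45% and 4.45% of all genes), with a median log2 fold change of 0.30. *Fkbp5*, a glucocorticoid-induced chaperone of the glucocorticoid receptor, had 16.7, 25.6 and 20.9 FPKM in controls and 8.62, 10.8 and 11.2 FPKM in med23Δli livers. The groups of *Fkbp5* were apart, with a log2 fold change of −1.03 (SE 0.19) and an adjusted p of 0.0111 in limma. The adjusted p was 0.0526 without med23Δli replicate 1, and without control replicate 2 the log2 fold change was −0.88, under the size threshold, as it was with a pseudocount of 1 (−0.97). *Tsc22d3*, another glucocorticoid-induced gene, went the other way, with a log2 fold change of 0.79 and an adjusted p of 0.0236 in limma, so that at any size 1 gene was higher and 1 lower, where 11.6% and 9.48% of all genes were. *Il6*, the cytokine that induces *Mt1* and *Mt2* in the acute phase, was at or below 0.143 FPKM in every liver and was not tested.

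Around the cluster, 20 annotated genes lie within 250 kb of its ends, of which 10 were in the table and 6 were tested. Of these 6, 1 was called lower and none higher, where 3.45% and 4.45% of all genes were. *Herpud1*, a gene of the endoplasmic reticulum stress response, was called lower, with 420, 513 and 327 FPKM in controls and 137, 179 and 154 FPKM in med23Δli livers. Its log2 fold change was −1.41 (SE 0.19) with an adjusted p of 0.00460 in limma, and it passed in all 15 alternative settings. *Nudt21*, *Ogfod1*, *Bbs2* and *Nup93* had log2 fold changes from −0.29 to 0.12 and did not pass.

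The profiles of *Mt1* and *Mt2* over the 6 livers were compared with those of all genes tested by the root mean square difference, each log2 profile set to its own mean. The nearest genes to *Mt1* were *Rac3* (0.130), *Sdsl* (0.219), *Ms4a8a* (0.231), *Kank3* (0.240) and *Serpina3m* (0.259). Of these, *Rac3* (0.336 to 2.11 FPKM) and *Ms4a8a* (0.171 to 2.05 FPKM) were low, where precision is unknown. The nearest genes to *Mt2* were *Cp*, the copper carrier of plasma (0.137), *Slc10a2* (0.140), *Fam25c* (0.150), *Cd36* (0.162) and *5033403H07Rik* (0.182). The difference between *Mt1* and *Mt2* was 0.894, where the median over all genes was 0.855 from *Mt1* and 0.476 from *Mt2*. This placed *Mt2* at position 6866 of 11955 genes ordered by nearness to *Mt1*, and *Mt1* at position 11225 for *Mt2*. These are descriptions over 6 livers of both groups.

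**Figure D5:**
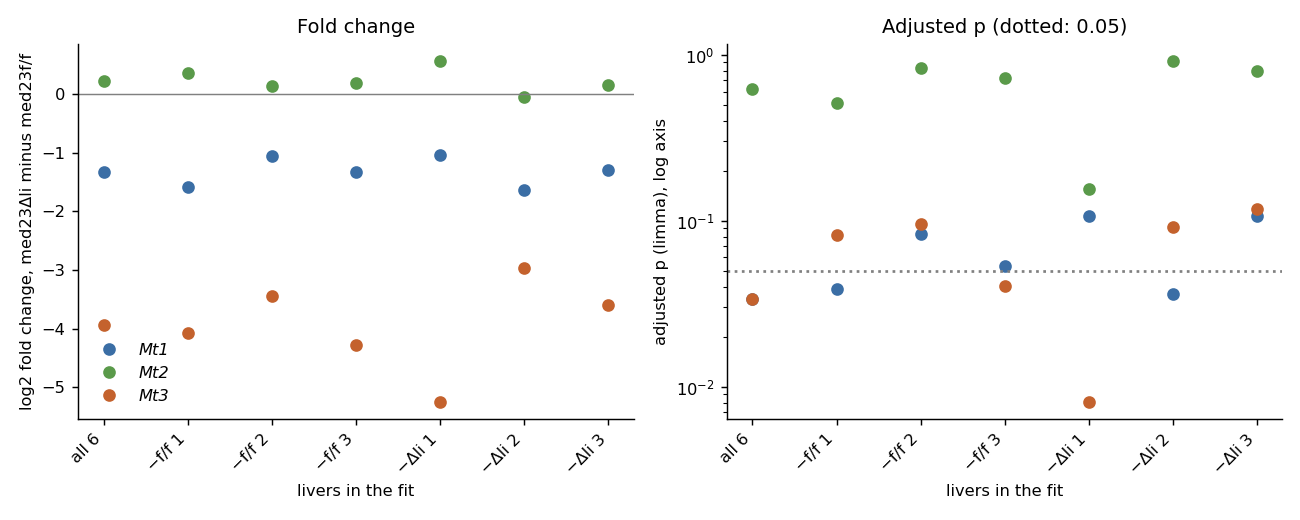
Log2 fold change (left) and adjusted p from limma (right, log axis, dotted line at 0.05) of *Mt1*, *Mt2* and *Mt3* with all 6 livers and with each liver left out (f/f, med23f/f; Δli, med23Δli). *Mt1* stays between −1.63 and −1.05 and *Mt3* between −5.24 and −2.96, whereas their adjusted p values cross the dotted line and *Mt2* crosses 0 without med23Δli replicate 2.

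Beside these values, the endothelial markers were lower in the same med23Δli livers as *Mt1* and *Mt3*, and macrophage, neutrophil, stellate and cholangiocyte markers were called in neither direction. The summed level was 143 to 200 FPKM in controls and 151 to 172 FPKM in med23Δli livers for 6 macrophage markers, and 39.6 to 120 and 38.1 to 96.0 FPKM for 4 neutrophil markers. It was 76.3 to 95.9 and 60.1 to 78.1 FPKM for 5 stellate cell markers, and 11.1 to 16.2 and 14.7 to 16.1 FPKM for 5 cholangiocyte markers. The log2 fold changes of the stellate cell markers were −0.52 for *Lrat*, −0.56 for *Des*, −0.58 for *Pdgfrb* and −0.31 for *Dcn*, but 0.47 for *Reln*. Of these 5, 1 (*Des*, adjusted p 0.0497 in limma) was lower at any size, where 9.48% of all genes were. The 5 lymphocyte markers summed to 0.666 to 1.54 and 0.781 to 1.74 FPKM and were too low to test. Of 6 pancreatic acinar markers, *Cpa1*, *Prss2*, *Pnlip* and *Amy2a5* were listed at 0 in all livers, *Cela1* had 3.45 to 6.71 FPKM and *Ctrb1* was at most 0.740 FPKM. The part of endothelial and stellate cells in the levels of *Mt1* and *Mt3* was not tested. The adipocyte markers *Adipoq*, *Ucp1* and *Plin1* had 5.65, 2.29 and 2.76 FPKM in med23Δli replicate 2 and were at or near 0 elsewhere. That liver had the highest *Mt2* of all 6 and the highest *Mt1* of its group, and the part of adipose tissue in these levels was not tested.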

How the data were processed

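The authors trimmed adapters from 150-base paired reads of kits that do not mark strand, aligned them to mm10 with TopHat and ran Cuffdiff. The versions, annotation and Cuffdiff options are not given in the sources used here. The deposited table holds FPKM per library, and also the authors' own comparison (group FPKM, fold changes, test statistics, p-values, q-values), which was not used.

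Groups were taken from the sample labels, with 3 mice each. Values of log2(FPKM + 0.1) were compared by the moderated linear model of limma (version 3.58.1, R 4.3.3, variance trend on) for genes averaging 0.5 FPKM or more, with Benjamini-Hochberg adjustment over all 11956 genes tested. The test was checked on simulated data. Single values had exact two-sided permutation tests. The depth of a library cannot be recovered from FPKM.

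The genes named were all 10 of the set, genes past both thresholds in fixed lists (other transporters, copper handling, MTF1-dependent genes, inducers, genes near the cluster), and the 5 nearest profiles of *Mt1* and *Mt2*. *Commd1*, *Atp7b*, *Tsc22d3*, *Il6*, the stellate, adipocyte and pancreatic markers and the genes near the cluster that did not pass were named after their values were seen. Not every gene near the cluster is reported here. The set and the lists were chosen with earlier results of these data known. Positions come from GENCODE mouse release M 21 and promoter windows from RefSeq (GRCm38.p6). Alternatives were other pseudocounts (1 and 0.01), no filter or a filter at 1 FPKM, median centring, quantile normalization, eBayes without a trend or robust, the replicate number as a block, and leaving out each liver. Figures were drawn with matplotlib 3.10.9 under Python 3.11.15.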

Additional observations from a re-analysis of the deposited data

How the results depend on the processing

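The direction of *Mt1* and *Mt3* was lower in all 15 alternative settings, with log2 fold changes of −1.63 to −1.05 and −5.24 to −2.40, and the adjusted p from limma was below 0.05 in 10 settings for *Mt1* and 9 for *Mt3*. The count of genes of the set called lower, 2 with all livers, was 0 without the filter on low values, 1 with robust eBayes and 0 to 2 with each liver left out in turn. The count called higher was 0 throughout. *Mt2* changed sign only without med23Δli replicate 2, to −0.055, and ran up to 0.56 with another liver left out. The count of 2 without control replicate 3 includes *Mt4*, which entered the test only through control replicate 2, so nothing is read from it. *Mt4* had no value with the filter at 1 FPKM. The cause of these changes was not tested, except that fewer livers entered each of the fits that left one out.

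Replicate numbers are shared between the groups. Over all genes tested, same-numbered livers did not deviate together (correlations of −0.12 to −0.02). *Mt1* itself had the same order in both groups, with replicate 2 highest and replicate 1 lowest. What the shared numbers stand for is not known here. With the replicate block, 2 genes of the set were called lower. *Mt1* was at −1.33, with an adjusted p in limma of 0.00637 against 0.0336 without the block. *Mt3* had an adjusted p of 0.0473 in limma with the block. Over all genes, the count of 532 higher and 412 lower calls was 371 and 229 with a pseudocount of 1, 321 and 266 without med23Δli replicate 1, and 367 and 255 without med23Δli replicate 3, while it was 718 and 531 without control replicate 3; the replicate block gave 477 and 353. The median of all genes moved by less than 0.1 under each scaling. Settings for *Slc30a4*, *Slc39a6*, *Slc39a11*, *Gclc*, *Fkbp5*, *Herpud1* and the endothelial markers were added after seeing the data. The replicate block ended 1 of these calls, that of *Slc30a4*. With 3 livers a group and no read counts, the precision at low FPKM is unknown.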
